A study of Mus musculus with 16 samples.

Results

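Cela1, Cela2a, Cela3a and Cela3b are the pancreatic elastase genes of the mouse. These 4 genes, of 54146 in the expression tables and 15204 that were tested, were selected on measured values: Cela3a was picked because it was high in CAST mice and low in all other strains. The levels of Cela3a in CAST against the other strains, and its ratio to Cela3b there, are therefore given as a description with no test. RNA was sequenced from whole pancreatic islets of 26-week-old female and male mice kept on a high-fat diet. The mice came from 8 inbred strains, 129S1_SvImJ (129, 10 libraries), A_J (AJ, 14), C57BL/6J (B6, 18), CAST_EiJ (CAST, 14), NOD_ShiLtJ (NOD, 10), NZO_HlLtJ (NZO, 4), PWK_PhJ (PWK, 5) and WSB_EiJ (WSB, 16). All groups shared the diet and the age, so there was no control diet, and the labels name no transgene or engineered allele. Each of the 91 libraries was taken as 1 replicate of its strain and sex. The labels do not tie each library to a mouse, so p-values measure the spread between libraries. NZO had 3 female libraries and 1 male library, and PWK had 1 female and 4 male libraries.

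Elastases are serine proteases of the pancreatic juice. Acinar cells, the exocrine cells that surround the islets, make them as inactive zymogens, store them in granules and release them into the duct, and trypsin activates them in the gut. Cela1 encodes elastase-1, Cela2a encodes an elastase-2, and Cela3a and Cela3b encode the closely related elastase-3 proteases. Isolated islets carry some acinar tissue, so an elastase level in these bulk libraries follows both how much acinar tissue was present and how much of each transcript an acinar cell held. Fewer acinar cells and less RNA per acinar cell cannot be told apart in such data. A ratio of 2 elastases within a library does not depend on the acinar share in that way. This holds only where both genes lie well above the floor of detection.

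Library totals ran from 16928552 to 35196145 expected counts (median 27485367). Xist and Y-linked genes went against the sex label in 12 libraries, of which 129 had 6, WSB 4 and NOD 2, and the results by sex are given with and without them where these strains enter. No CAST or B6 library was among them. The libraries are numbered. AJ, B6, CAST and WSB libraries were numbered 1 to 32 and 34 to 65, and 129, NOD, NZO and PWK had the numbers 66 to 100, so that a difference between these 2 sets of strains cannot be told apart from a difference between numbers. The labels do not say what a number stands for. They state that animals were collected, extracted and sequenced in 4 waves, the last of which had its libraries made at a different centre, without giving the wave of a library.

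All 4 genes lie on the minus strand of GRCm38. Cela3a (ENSMUSG00000078520.3, chr4:137401554-137409791) and Cela3b (ENSMUSG00000023433.8, chr4:137420999-137430540) are neighbours separated by 11207 bases. Cela2a (ENSMUSG00000058579.5, chr4:141814962-141826160) is farther along chromosome 4, and Cela1 (ENSMUSG00000023031.8, chr15:100674421-100687921) is on chromosome 15. The main transcript of each gene has 8 exons. The coding sequences of Cela3a (849 bases) and Cela3b (807 bases) differed at 44 of 807 aligned positions in the reference genome, an identity of 94.5%, with a longest identical run of 145 bases. The identity between any other pair of the 4 genes was 58.4% to 63.9%. Differences between Cela3a and Cela3b were unevenly spread over the exons. The first 2 exons and exon 8 had none, exon 3 had 4, exon 5 had 3 and exon 4 had 18 of 135. Exon 6 had 10 over 130 aligned positions and exon 7 had 9 over 153. Coding lengths in Cela3a and Cela3b were 130 and 143 bases for exon 6 and 208 and 153 for exon 7. Exon 2 (chr4:137408125-137408210 in Cela3a, chr4:137428469-137428554 in Cela3b) and exon 4 (chr4:137405581-137405715 and chr4:137424786-137424920) are printed to show where reads can and cannot be assigned to 1 of the pair. Both are coding sequence from GENCODE M21, and capitals mark the positions at which the genes differ.

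Cela3a and Cela3b exon 2: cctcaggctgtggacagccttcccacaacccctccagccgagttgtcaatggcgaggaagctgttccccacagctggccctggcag

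Cela3a exon 4: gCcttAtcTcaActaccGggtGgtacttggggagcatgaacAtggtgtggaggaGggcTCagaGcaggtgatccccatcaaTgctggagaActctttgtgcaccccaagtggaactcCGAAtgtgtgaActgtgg

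Cela3b exon 4: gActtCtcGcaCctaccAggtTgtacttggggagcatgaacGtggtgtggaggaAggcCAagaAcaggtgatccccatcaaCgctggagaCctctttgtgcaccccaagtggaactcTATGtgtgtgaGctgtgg

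No CAST sequence was used, so these letters are those of the C57BL/6J reference. Per fragment of 100 bases, the length the tables assume, 104 of the 859 windows of the Cela3a transcript (12.1%) were found unchanged in a Cela3b transcript and 264 (30.7%) with at most 2 differences. No window of Cela3a came closer than 29 differences to Cela2a or 31 to Cela1. The proximal promoters of the pair were also alike, with 20 differences over 237 aligned bases (91.6% identity). The 250 bases before the start site (RefSeq, GRCm38.p6) are given because both genes are acinar genes with very unequal transcript levels in the strains other than CAST. They were read for CACCTG, a form of the E-box CANNTG that acinar bHLH factors bind, for GGGAAA, and for TATAAA, on both strands, and matches of these 3 are in capitals.

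Cela3a promoter, chr4:137409792-137410041: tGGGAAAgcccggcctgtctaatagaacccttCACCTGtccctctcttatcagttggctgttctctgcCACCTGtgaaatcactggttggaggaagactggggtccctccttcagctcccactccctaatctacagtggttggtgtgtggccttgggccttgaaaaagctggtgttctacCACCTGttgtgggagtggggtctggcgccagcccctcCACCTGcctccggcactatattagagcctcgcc

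Cela3b promoter, chr4:137430521-137430770: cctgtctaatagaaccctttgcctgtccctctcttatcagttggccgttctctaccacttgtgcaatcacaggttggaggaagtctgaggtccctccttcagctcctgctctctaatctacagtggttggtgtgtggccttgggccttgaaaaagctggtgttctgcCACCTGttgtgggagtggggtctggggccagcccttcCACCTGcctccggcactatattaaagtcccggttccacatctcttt

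The Cela3a promoter of the reference held 4 CACCTG matches and 1 GGGAAA match, whereas the Cela3b promoter held 2 CACCTG matches. The GGGAAA match of Cela3a lies upstream of the part of its window that aligns with the Cela3b window. The matching position of Cela3b was therefore not searched, and no difference in GGGAAA is read between the pair. The Cela1 and Cela2a promoters each held 1 CACCTG match and 1 GGGAAA match, and Cela1 held 1 TATAAA match. Of 32851 promoter windows of that length, 17.2% held CACCTG, 21.9% held GGGAAA, 12.4% held TATAAA and 66.2% held CANNTG. The matches are letters in a window and were not tested for binding.

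Cela3a was near the floor of detection in 7 strains and abundant in CAST. Its level, in TPM (transcript abundance scaled for transcript length and library total), was 67.6 in the lowest, 619.7 in the median and 2965 in the highest of the 14 CAST libraries. Over the 77 libraries of the other strains it ran from 0.10 to 13.7 TPM with a median of 1.28. No CAST library overlapped any other library, and the lowest CAST value was 4.94 times the highest of the others. The expected counts of Cela3a outside CAST were 2.27 to 260.78 (median 25.7) and those in CAST were 1371 to 81749 (median 12811). The mean was 1035 ± 989 TPM (SD, n = 14) in CAST and 1.68 ± 1.90 TPM (n = 77) elsewhere, and the fitted log2 difference between CAST and the mean of the other strains was 9.69 ± 0.36 (SE). Across all genes tested, 0.250% had every CAST library above every other library on normalized counts, and Cela3a was the 1 elastase of the 4 that did. Since Cela3a was chosen for this pattern, nothing is read from that count.

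PWK stood at the upper end of the other strains. Its 5 libraries had 1.58, 3.73, 5.96, 7.04 and 13.7 TPM of Cela3a. The 4 NZO libraries had 0.790, 1.77, 2.95 and 4.15 TPM. The PWK mean (6.4 ± 4.58, n = 5) and the NZO mean (2.42 ± 1.46, n = 4) differed by less than the larger SD. The order then ran from B6 (1.84 ± 1.10, n = 18) through NOD (1.66 ± 1.22, n = 10), WSB (1.17 ± 0.62, n = 16) and 129 (0.808 ± 0.497, n = 10) to AJ (0.787 ± 0.588, n = 14), and no neighbours in this order differed by more than their SD.

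**Figure D1:**
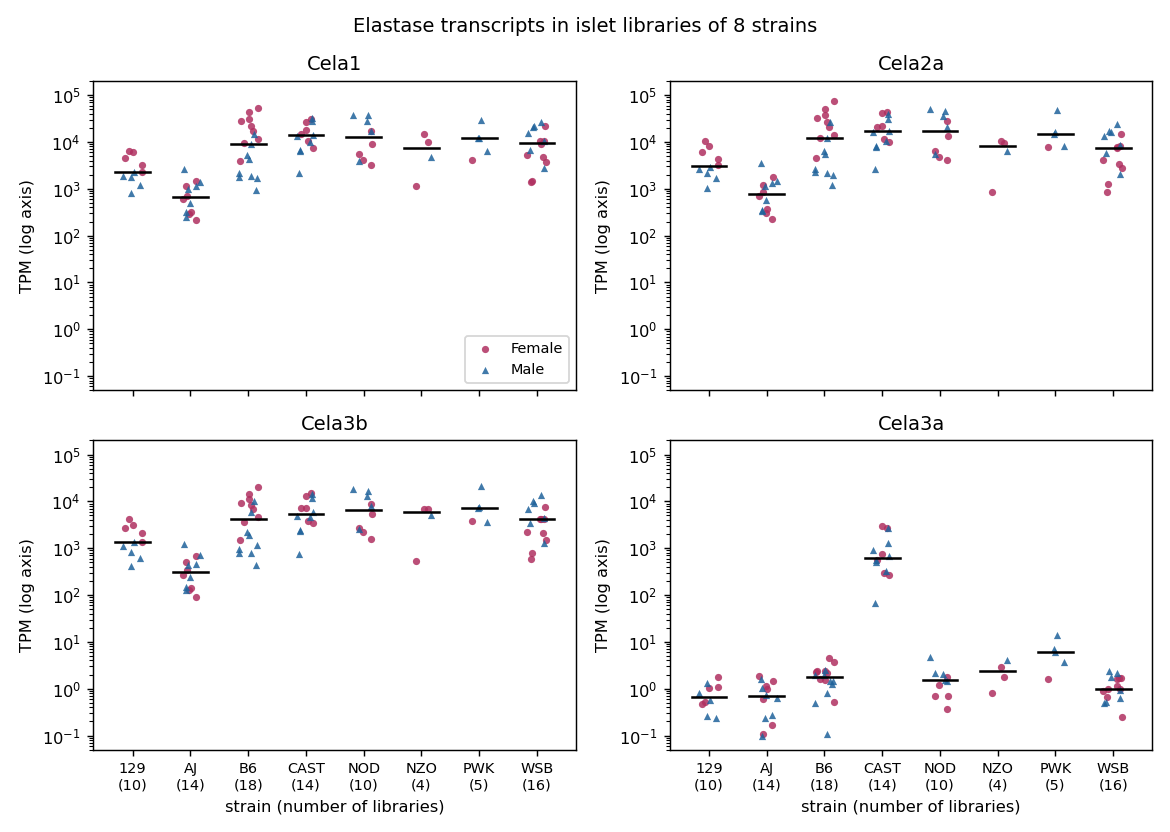
TPM of Cela1, Cela2a, Cela3b and Cela3a (log axes) in each of the 91 libraries by strain, with circles for females, triangles for males and a line at each strain's median. Cela3a sat between 67.6 and 2965 TPM in CAST and at or below 13.7 TPM in all other libraries, while the other 3 genes overlapped between CAST and the other strains.

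Cela3b, the closely related neighbour, did not follow that pattern. It ran from 761.5 to 14895 TPM with a median of 5392 in CAST, and from 92.1 to 21517 TPM with a median of 2572 over the other 77 libraries. Its highest strain means were those of PWK (8717 ± 7385, n = 5), NOD (7866 ± 6135, n = 10) and CAST (6893 ± 4700, n = 14), and the lowest was that of AJ (398 ± 321, n = 14). The difference between 129 (1778 ± 1212, n = 10) and AJ was larger than the SD of either, and all other neighbours in the order differed by less than that. Cela3b therefore exceeded Cela3a in all 91 libraries, CAST included. In CAST, Cela3a reached 6.95% of the Cela3b TPM in the lowest library, 11.2% in the median and 22.8% in the highest. In the other strains it was 0.00706% to 0.868%, with a median of 0.0427%, and the highest of these was an AJ library with 129.0 TPM of Cela3b.

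The counts show how reads were divided within the pair. The Cela3a and Cela3b expected counts added up to a whole number, within 0.02, in all 91 libraries, while Cela3a alone was whole in 6. Reads that matched more than 1 gene were thus split between just these 2, and the few Cela3a counts outside CAST hold fractions of reads shared with a gene that had 1766 or more counts in every such library. Whether any Cela3a transcript was present there was not tested. The CAST counts rest on the same division, made against the reference genome and without CAST sequence. How many CAST reads were assigned to the wrong gene of the pair was not tested. That limits the Cela3a level in CAST and its ratio to Cela3b in that strain.

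The Cela3a level rose in step with Cela3b in CAST. Across the 14 CAST libraries, log2(TPM + 0.1) of Cela3a and Cela3b had Pearson's r = 0.911 and Spearman's rho = 0.864, with permutation p-values adjusted over the 18 relations of this kind of 1.38e-05 and 1.52e-04. The slope was 1.14 on the log2 scale. Without the 2 libraries farthest from the median of Cela3b, r was 0.812 (n = 12, permutation p = 0.00124). Within the libraries numbered 1 to 32, r was 0.980 (n = 8, exact permutation p = 2.23e-04), and within those numbered 34 to 65 it was 0.994 (n = 6, exact permutation p = 0.0125). Spearman's rho was 0.976 in the first set (exact permutation p = 3.97e-04) and 0.829 in the second, where it did not pass (exact permutation p = 0.0583). In the 5 other strains with 10 or more libraries the slope of Cela3a on Cela3b was 0.06 to 0.52. Cela3a outside CAST rested on a median of 25.7 expected counts and on reads shared with Cela3b, which limits these relations. There r was 0.703 in NOD (n = 10) and 0.569 in WSB (n = 16), with an adjusted permutation p of 0.0264 for each, and 0.469 in B6 (n = 18, adjusted permutation p = 0.0512). By Spearman's rho the adjusted permutation p-values were 0.0538 in NOD, 0.0197 in WSB and 0.0362 in B6. Without the 2 farthest libraries the relation did not pass in NOD (permutation p = 0.139) or in B6 (r = 0.354, permutation p = 0.180), and it passed in WSB (permutation p = 0.0141). In 129 and AJ r was 0.0828 and 0.233, and neither passed. By contrast, the slopes of Cela1 and Cela2a on Cela3b were 0.91 to 1.09 in all 6 strains, with r from 0.985 to 0.997. The acinar share of a library enters each of these levels, and its part in the correlations was not tested.

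**Figure D2:**
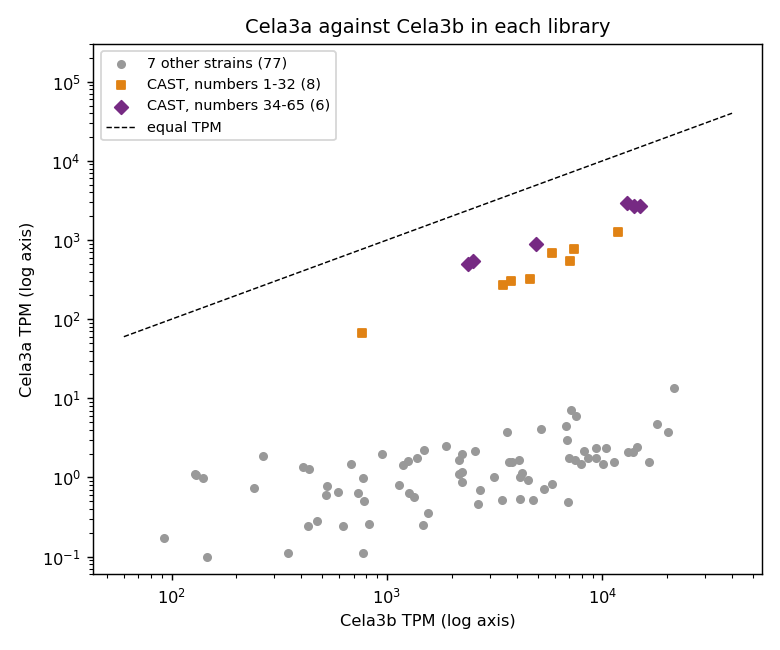
TPM of Cela3a against TPM of Cela3b in each library (log axes), with grey circles for the 7 strains other than CAST, orange squares for CAST libraries numbered 1 to 32, purple diamonds for CAST libraries numbered 34 to 65 and a dashed line of equal TPM. All libraries lie below the line, and the CAST libraries lie along 2 parallel bands at 6.95% to 11.8% and 18.1% to 22.8% of Cela3b.

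Within CAST, the Cela3a to Cela3b ratio fell into 2 levels by library number. This contrast was not used to choose the genes, and it was tested after the values had been seen. In the 8 libraries numbered 1 to 8, Cela3a was 6.95%, 7.77%, 7.78%, 8.02%, 8.87%, 10.4%, 10.6% and 11.8% of the Cela3b TPM. In the 6 libraries numbered 34 to 39 it was 18.1%, 18.2%, 18.9%, 21%, 21.9% and 22.8%. The 2 sets did not overlap, and the mean was 9.03% ± 1.72 (SD, n = 8) against 20.1% ± 2.00 (n = 6). The ratio was 2.25-fold higher in the second set (log2 difference 1.17, two-sided exact permutation p = 6.66e-04, the smallest this design allows, and 0.00799 adjusted over 12 comparisons of 3 elastase ratios in 4 strains). Of the 15203 other genes tested, 0.00658% had a ratio to Cela3b that did not overlap between the 2 sets, a share that corresponds to 1 gene, Cela3a. Most of those genes are not acinar, and their ratio to Cela3b carries the spread of the acinar share. Among the 25 other acinar secretory genes tested, 0 had a ratio to Cela3b without overlap.

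The split was also present with another denominator. Relative to the mean log2 level of the 26 other acinar secretory genes, Cela3a was -2.75 to -1.98 in libraries numbered 1 to 8 and -1.69 to -0.94 in those numbered 34 to 39, again without overlap (difference 1.10, exact permutation p = 6.66e-04). On the same scale Cela3b was 1.02 ± 0.11 (SD, n = 8) against 0.95 ± 0.18 (n = 6), a difference smaller than either SD. The Cela1 to Cela3b ratio differed by -0.04 (log2) between the sets and the Cela2a to Cela3b ratio by 0.14, with exact permutation p-values of 0.725 and 0.121. Both sexes were present in each set, with 4 females and 4 males numbered 1 to 8 and 2 females and 4 males numbered 34 to 39. The log2 difference was 1.09 in males (4 against 4, exact permutation p = 0.0286) and 1.27 in females (4 against 2, exact permutation p = 0.133, the smallest that size allows). Leaving out each CAST library in turn gave 1.12 to 1.23.

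The sets overlapped in the Cela3a level itself. It was 67.6 to 1263 TPM (median 434) in libraries numbered 1 to 8 and 497.5 to 2965 TPM (median 1779) in those numbered 34 to 39. In edgeR's quasi-likelihood test within CAST, with sex as a covariate, the later numbers minus the earlier gave 1.96 ± 0.69 (log2, SE) for Cela3a, with an unadjusted p of 0.0123 and an adjusted p of 0.161. In that test 0 of the 4 elastases passed, against 0.500% of all genes. The adjusted p-values of Cela1, Cela2a and Cela3b were 0.575, 0.399 and 0.469. Before adjustment, 2740 of the 15204 genes had a p below 0.05 in CAST by this test. The same test gave 6289 such genes in AJ, 5815 in B6 and 4193 in WSB. Differences between the number sets were thus not confined to Cela3a. In AJ, B6 and WSB the Cela3a to Cela3b ratio differed between the number sets by 0.47, 0.57 and 0.41 (log2), with exact permutation p-values, unadjusted, of 0.542, 0.432 and 0.482, at counts where Cela3a was close to its floor. Of the other 11 comparisons of this family, 1 passed after adjustment: the Cela2a to Cela3b ratio of AJ was 0.18 (log2) lower in the later numbers (adjusted exact permutation p = 0.0280). Whether CAST libraries of low and high number belong to different waves of collection and sequencing cannot be told from the labels, and the cause of the split was not tested.

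**Figure D3:**
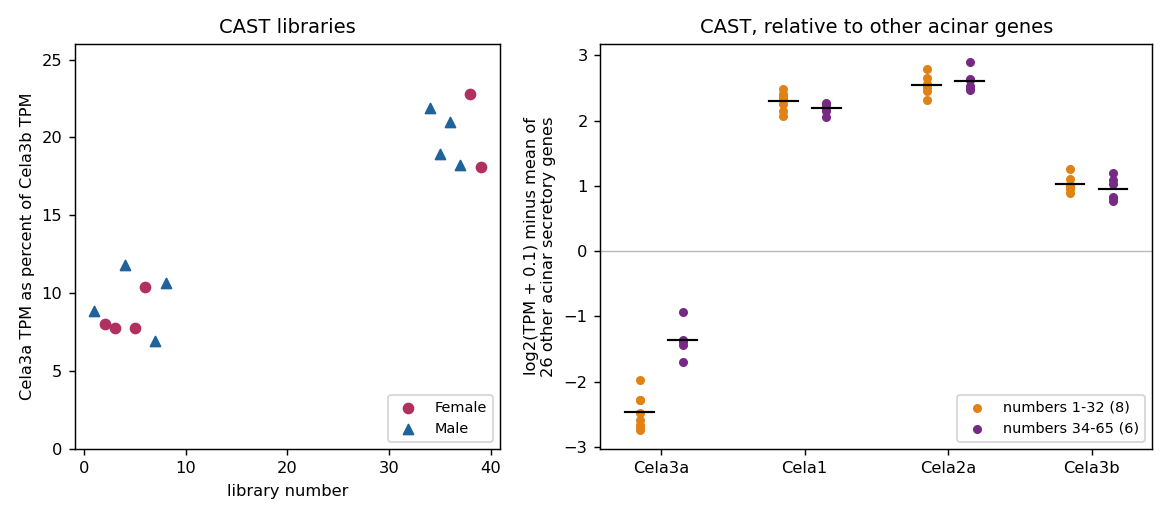
Left, Cela3a TPM as a percent of Cela3b TPM in each CAST library against its number, with circles for females and triangles for males. Right, log2(TPM + 0.1) of each elastase minus the mean of 26 other acinar secretory genes in CAST libraries numbered 1 to 32 (orange, 8) and 34 to 65 (purple, 6), with lines at the means. The 2 sets do not overlap for Cela3a and overlap for Cela1, Cela2a and Cela3b.

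Cela1, Cela2a and Cela3b varied together by more than 2 orders of magnitude between libraries. The highest library had 239-fold the TPM of the lowest for Cela1, 324-fold for Cela2a and 234-fold for Cela3b, and the SD over 91 libraries was 1.94, 1.99 and 1.93 on the log2 scale. The ratios among these 3 genes varied only 3.00-fold to 3.27-fold, with SDs of 0.30 to 0.35. Together the 4 elastases made up 0.0539% to 14.7% of a library's TPM (median 1.74%). Cela1 and Cela2a both exceeded Cela3b per length in 90 of 91 libraries.

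Cela1, the elastase-1 gene, had its highest mean in NOD (16310 ± 13749 TPM, range 3270 to 38061, n = 10), its highest median in CAST (13744 TPM, against 12963 in NOD) and its highest library in B6 (52227 TPM). Both the mean and the median were lowest in AJ (range 218 to 2664 TPM, median 664, n = 14). The order of the strain means was NOD, CAST, B6, PWK, WSB, NZO, 129 and AJ, and only the last pair (3063 ± 2010 against 862 ± 679 TPM) differed by more than its SD. Cela2a had nearly the same order, from NOD (21417 ± 17586, n = 10), CAST, PWK and B6 down to WSB, NZO, 129 (4262 ± 3019, n = 10) and AJ (1019 ± 898, n = 14), and again only 129 and AJ differed by more than the SD. Between CAST and the mean of the 7 other strains, the log2 differences of Cela1, Cela2a and Cela3b were 1.45 ± 0.40, 1.60 ± 0.40 and 1.21 ± 0.40 (SE). Each of the 3 lay within 1 SE of the median of the 25 tested acinar secretory genes (1.36). Over AJ, B6, CAST and WSB alone, with the number set as a covariate, the 3 differences were 1.82, 2.06 and 1.81. Over all strains, with the mean of the acinar secretory genes as a covariate, they were -0.55, -0.44 and -0.87, while that of Cela3a was 7.87. That mean holds genes that were themselves far higher in CAST, among them Prss1 (7.50 on the log2 scale), Try10 (5.11) and Amy2b (21933 against 1313 TPM, named after its values were seen), and their part in these values was not tested. No order of the 3 genes against the other acinar genes is read from these values.

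Among the 7 strains other than CAST, all 4 elastases differed by strain in edgeR's quasi-likelihood F test, as did 96% of all genes tested, so the count is close to the background. The adjusted p-values were 1.81e-09 for Cela1, 1.19e-09 for Cela2a, 3.74e-09 for Cela3b and 2.29e-05 for Cela3a. The fitted span between the highest and lowest of these strains was 4.70, 4.85, 4.81 and 3.33 (log2). With the acinar mean as a covariate it was 1.39, 1.96, 0.87 and 2.20, and over 129, NOD, NZO and PWK alone 2.70, 2.63, 2.46 and 2.75, each still past the threshold. For Cela3a the span was 2.50 without the PWK library numbered 69, which had the highest Cela3a level outside CAST, and 1.46 over AJ, B6 and WSB alone with the number set as a covariate (adjusted p = 0.00269 and 0.00316). For Cela3a the call was lost with limma-voom (adjusted p = 0.176) and with the libraries of each sample summed (edgeR, adjusted p = 0.0619).

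Ratios within libraries were compared among the strains other than CAST. For Cela2a to Cela3b, 75.6% of the variance over 77 libraries lay between strains (permutation test, p = 1e-05, the smallest that 100000 resamples can give, also after adjustment over 3 ratios). The NZO libraries had ratios of 1.22, 1.38, 1.56 and 1.62 and the PWK libraries 2.03, 2.09, 2.19, 2.20 and 2.24. WSB, the strain above NZO in the order, ran from 1.47 to 2.02 (mean 1.77 ± 0.15, n = 16), below all PWK libraries. NOD, AJ and 129 had means of 2.59, 2.52 and 2.42 that differed by less than their SD, and B6 was highest of the 7 at 2.96 ± 0.48 (n = 18). CAST (3.00 ± 0.32, n = 14) lay next to B6.

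The ratio of Cela1 to Cela3b differed less. Between-strain variance was 41.9% (permutation p = 1e-05), from 1.53 ± 0.30 in PWK (n = 5) and 1.68 ± 0.62 in NZO (n = 4) to 2.36 ± 0.46 in B6 (n = 18). No neighbours in the order differed by more than their SD. The difference did not hold within either set of library numbers: over AJ, B6 and WSB it was 2.21% of the variance (permutation p = 0.608), and over 129, NOD, NZO and PWK it was 23.7% (permutation p = 0.0700). The Cela2a to Cela3b difference passed in both sets. For Cela3a to Cela3b among the 7 strains, 42.6% of the variance lay between strains (permutation p = 1e-05), with AJ highest at 0.312% ± 0.316 (n = 14). AJ had the lowest mean of Cela3a (0.787 TPM) as well as of Cela3b (398 TPM). PWK, next in the order of the ratio (0.0773% ± 0.0255, n = 5), had the highest mean of Cela3b. Since Cela3a outside CAST was near its floor and its reads are shared with Cela3b, no difference in the proportion of the pair is read from this ratio.

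WSB reversed the usual order of the 2 most abundant elastases. Cela1 exceeded Cela2a in all 16 WSB libraries (ratio 1.11 to 1.60), in 3 of 4 NZO libraries (0.749, 1.04, 1.34 and 1.41) and in 1 of 14 CAST libraries. It was below Cela2a in every library of 129, AJ, B6, NOD and PWK, where the ratio ran from 0.526 to 0.979. The WSB libraries were thus separated without overlap from those 5 strains.

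**Figure D4:**
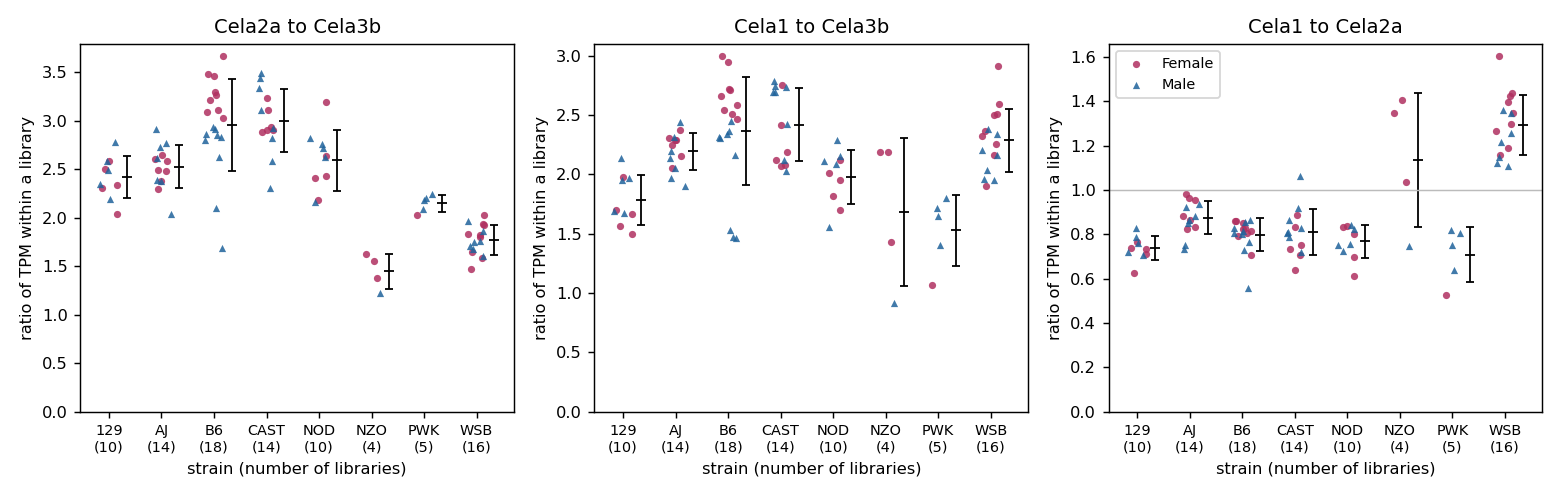
Ratios of TPM within each library (linear axes from 0) for Cela2a to Cela3b, Cela1 to Cela3b and Cela1 to Cela2a by strain, with circles for females, triangles for males and black bars for the mean ± SD. NZO and WSB have the lowest mean Cela2a to Cela3b ratios, at 1.45 and 1.77, and all WSB libraries lie above a Cela1 to Cela2a ratio of 1 (grey line).

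Over all strains, no elastase passed the test between the sexes. The male minus female log2 differences were -0.12 for Cela1, -0.10 for Cela2a, -0.10 for Cela3a and -0.003 for Cela3b, with adjusted p-values of 0.919, 0.936, 0.921 and 0.998 in edgeR's quasi-likelihood test, so 0 of 4 were called against 4.01% of all genes. The unadjusted p-values were 0.727 to 0.993, and with limma-voom the adjusted p-values were 0.730 to 0.883. Without the 12 libraries against the sex label, 0 of 4 were called against 9.79% of all genes, with adjusted p-values of 0.906 to 0.973. The difference between sexes depended on the strain. Among 82 libraries of the 6 strains in which each sex had 5 or more, the strain by sex interaction passed for Cela1 (adjusted p = 9.92e-04), Cela2a (adjusted p = 0.00189) and Cela3b (adjusted p = 0.00348) and not for Cela3a (adjusted p = 0.307), against 5.90% of all genes. Without the 12 libraries against the label, and with all 6 strains kept (70 libraries), the adjusted p-values were 0.00187, 0.00388 and 0.00784 for these 3 genes and 0.259 for Cela3a, against 17.6% of all genes. In that fit 129 had 2 libraries of each sex and NOD 4. With 129 and NOD left out as well (58 libraries of 4 strains), the first 3 had adjusted p-values of 0.0203, 0.0269 and 0.0451, against 4.24% of all genes.

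Females were higher in B6 and males in NOD. In B6, Cela1 ran from 3965 to 52227 TPM in 9 females (median 22303) and from 941 to 14735 TPM in 9 males (median 2207). In NOD the 5 females had a median of 5432 TPM and the 5 males a median of 27468 TPM. With all libraries the sexes overlapped in both strains. The fitted male minus female differences of Cela1 were -2.82 (log2) in B6, -1.52 in 129, -0.38 in CAST, 0.70 in AJ, 1.21 in WSB and 2.24 in NOD. Those of Cela3b were -2.26, -1.64, -0.48, 0.77, 1.41 and 2.16. Without the libraries against the label, those of Cela1 were -0.92 in 129, 1.33 in WSB and 2.38 in NOD, and NOD females (3270 to 16792 TPM, n = 4) lay below NOD males (17123 to 38061 TPM, n = 4). The mean log2 TPM of the other acinar secretory genes moved with them, at 10.8 ± 1.08 in B6 females and 8.57 ± 1.24 in B6 males (n = 9 each), and at 10.2 ± 0.92 in NOD females and 11.6 ± 1.16 in NOD males (n = 5 each). In NOD it was 10.3 ± 1.01 and 12.1 ± 0.55 without the libraries against the label (n = 4 each). Its part in the result was not tested.

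**Figure D5:**
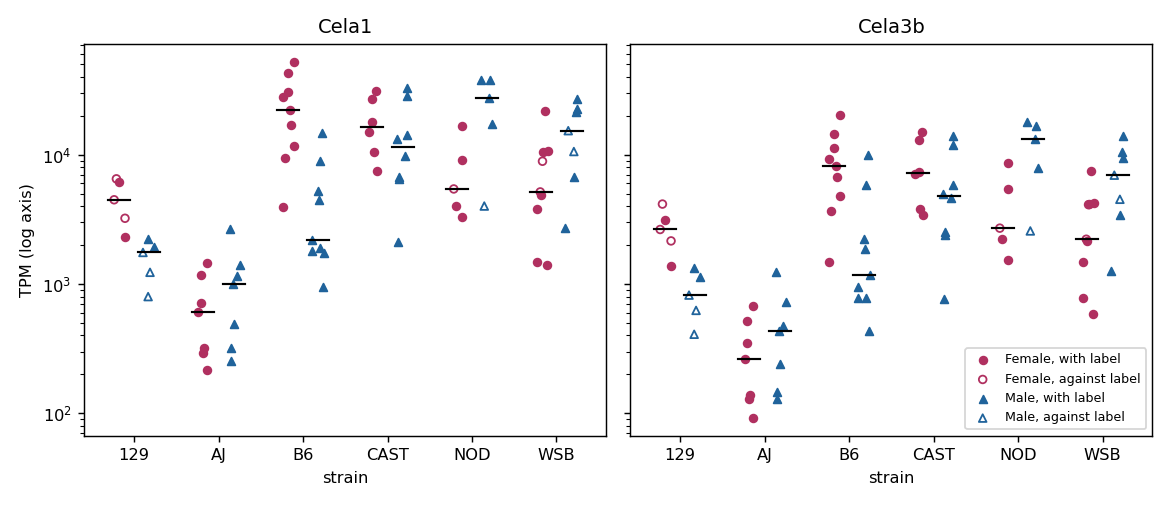
TPM of Cela1 and Cela3b (log axis) by strain and labelled sex in the 6 strains in which each sex had 5 or more libraries, with circles for females, triangles for males, open symbols for the libraries whose sex-linked genes go against the label and lines at the medians. B6 females lie mostly above B6 males and NOD males mostly above NOD females.

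In B6 the proportions of the elastases also differed by sex. By TPM, Cela1 was 2.46 to 2.99 times Cela3b in the 9 females and 1.46 to 2.45 times in the 9 males. The sexes did not overlap (exact permutation p = 4.11e-05, adjusted over 12 comparisons 2.47e-04). Cela2a was 3.03 to 3.67 times Cela3b in females and 1.69 to 2.93 times in males, again with no overlap and the same p-values. The means were 2.68 ± 0.19 and 2.04 ± 0.42 for Cela1, and 3.29 ± 0.21 and 2.62 ± 0.43 for Cela2a. On expected counts, which are not scaled for length, the Cela1 to Cela3b ratio did overlap between the sexes, and the Cela2a to Cela3b ratio did not. The Cela1 ratio of the male library numbered 52 was then above that of the female library numbered 54. Neither ratio of TPM overlapped between the sexes within the numbers 1 to 32 (4 against 4, exact permutation p = 0.0286, the smallest possible) or 34 to 65 (5 against 5, exact permutation p = 0.00794, the smallest possible). The male minus female differences were larger in the first set, at -0.62 for Cela1 and -0.48 for Cela2a (log2), than in the second, at -0.26 and -0.24, and the difference between the sets was not tested. For Cela1, 3 of the 4 males of the first set (1.46, 1.47 and 1.53) stood apart from the other 6 males (2.16 to 2.45). Of the other 10 comparisons in 129, AJ, CAST, NOD and WSB, 0 passed, with adjusted exact permutation p-values of 0.278 to 0.927, or 0.232 to 1 without the libraries against the label. These comparisons were chosen after the values had been seen, and whether B6 differs from the other strains in this respect was not tested.

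The other genes of the acinar programme are given from fixed lists. Of 26 acinar secretory genes other than elastases, 25 were tested, and 22 were higher and 0 lower in CAST than in the mean of the other strains (median log2 difference 1.36, against -0.01 over all genes), where 26.7% of all genes were higher and 31% lower. The count of 22 was 4 with the acinar mean, which these genes make up, as a covariate, and 6 with the libraries of each sample summed. The highest in mean TPM were Ctrb1 (chymotrypsinogen, 1.10 ± 0.40 log2, SE, adjusted p = 0.0153), Prss2 (a trypsinogen, 1.08 ± 0.40, adjusted p = 0.0164) and Pnlip (pancreatic lipase, 1.52 ± 0.39, adjusted p = 6.19e-04), all by edgeR's quasi-likelihood test. Of 6 trypsinogen genes, all of them also in that list, 4 were higher. They encode the proteases that activate proelastases. Prss2 and Try5 (1.04 ± 0.41, adjusted p = 0.0254) were among the 4, and Try4 had 0.62 ± 0.43 (adjusted p = 0.214). Prss1 (7.50 ± 0.48, adjusted p = 4.90e-25), which was chosen after its values were seen, and Try10 (5.11 ± 0.42, adjusted p = 6.51e-19) had far larger differences, from 74.0 ± 305 and 321 ± 571 TPM (n = 77) to 1526 ± 1186 and 3745 ± 3086 TPM (n = 14). The trypsinogens are a family of similar copies, so their reads may be divided uncertainly as well. Of 5 acinar transcription factors, 4 were higher, among them Ptf1a (1.31 ± 0.42, adjusted p = 0.00589) and Rbpjl (1.29 ± 0.38, adjusted p = 0.00240), partners in the PTF1 complex that drives acinar genes. Bhlha15 (Mist1) had 0.32 ± 0.18 and an adjusted p of 0.112. Among the 7 other strains, 25 of 25 acinar secretory genes, 6 of 6 trypsinogens and 4 of 5 transcription factors differed by strain, near the background of 96%.

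Of 9 listed inhibitors of elastases or trypsin, 4 were tested, of which 1 was higher and 2 lower in CAST, against 26.7% and 31% of all genes. Spink1, a trypsin inhibitor made by acinar cells and also in the acinar list, averaged 366.1 TPM over all libraries and was higher (0.90 ± 0.39, adjusted p = 0.0417), and Serpinb1a had 0.17 ± 0.35 (adjusted p = 0.695). Serpina1b and Serpina1d, copies of the alpha-1-antitrypsin gene, were lower (-3.57 ± 0.35, adjusted p = 2.20e-15, and -2.17 ± 0.36, adjusted p = 1.80e-07), with means of 0.107 and 0.231 TPM in CAST. Serpina1d was named after its values were seen. Elastases of other families were low. Elane, the neutrophil elastase, averaged 0.00791 TPM over all libraries and was not tested, and Mmp12, the macrophage elastase, averaged 2.92 TPM (CAST minus others 0.79 ± 0.15, adjusted p = 3.50e-06). Markers of other cell types were counted in the same contrast, in which 26.7% of all genes were higher and 31% lower. Of 10 islet endocrine genes 4 were higher and 1 lower in CAST, and their sum was 239239 to 582279 TPM in CAST and 177389 to 583776 TPM elsewhere. Of 7 ductal genes 1 was higher and 3 lower, of 8 tested lymphocyte and macrophage genes 0 were higher and 5 lower, and of 6 endothelial and stromal genes 0 were higher and 6 lower. The endocrine and ductal counts are near the share over all genes, and lists of this length allow no more to be read from them. The sum of the lymphocyte and macrophage genes was 5.91 to 26.4 TPM in CAST and 6.03 to 1029 TPM elsewhere. The part of these cells in the elastase levels was not tested. The sum of the 26 acinar genes was 20907 to 357682 TPM in CAST and 2340.2 to 390073 TPM in the other libraries.

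The genes around Cela3a were examined for the same contrast. Of 13 other annotated genes within 200 kb of the pair, 4 were tested and 0 were higher in CAST, a count too small to set apart from the 26.7% over all genes. Wnt4 (-0.40 ± 0.08, adjusted p = 7.57e-06) and Cdc42 (-0.13 ± 0.04, adjusted p = 0.00710) were lower, and the values for Hspg2 and Usp48 were 0.02 ± 0.09 (adjusted p = 0.889) and 0.06 ± 0.03 (adjusted p = 0.0881).

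The genes most like each elastase over the 91 libraries were found by Pearson's r of log2(TPM + 0.1), as a description over libraries that share strain and acinar content. For Cela3b they were Prss2 (r = 0.995), the ribonuclease gene Rnase1 (0.993), RP23-37C14.2 (0.992), the carboxypeptidase gene Cpa1 (0.992) and the lipase-related gene Pnliprp2 (0.989), with Cela1 at 0.988 and Cela2a at 0.985. For Cela3a, r with the other elastases was 0.435 to 0.484. Its closest genes were Gstm7 (a glutathione transferase, r = 0.839), Fancc (a Fanconi anaemia gene, 0.820), Amy1 (an amylase, 0.810), Slc1a7 (a glutamate transporter, 0.805) and Gipc2 (0.787). All 5 were higher in CAST on average. The choice of Cela3a for its CAST level favours such genes, so nothing is read from that. Fancc was 7.81 TPM or more in every CAST library and at most 6.71 TPM elsewhere, and Gipc2 was 7.37 TPM or more against at most 4.25 TPM. For Amy1 the groups overlapped (285 TPM in the lowest CAST library and 1226 TPM in the highest other), as they did for Gstm7 and Slc1a7. None of these 5 lies within 200 kb of Cela3a.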

How the data were processed

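RNA sequencing reads of the islet libraries were aligned and quantified by the authors with RSEM against the mouse genome mm10, per the labels, and the deposited tables hold, for each library and gene, the expected count, the TPM, the gene length and the effective length. Both expected count and TPM were used as deposited by the authors. Reads that match several genes are divided among them by RSEM, which affects Cela3a and Cela3b. The elastases and the gene lists were chosen with earlier results of these data known. Named genes were the 4 elastases, the 2 to 4 listed genes of highest mean TPM per list, annotated genes within 200 kb of the pair and the 5 genes most correlated with Cela3a and with Cela3b. Prss1, Amy2b and Serpina1d were named outside this rule, after their values were seen.

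Expected counts were rounded and fitted with edgeR 4.0.16 (quasi-likelihood test, upper-quartile normalization, strain and sex as terms, Benjamini-Hochberg adjustment, threshold 0.05) in R 4.3.3, over protein-coding genes of chromosomes 1 to 19 and X, after removal of the 10% of lowest variance and of genes not above 0 in 85% of libraries, which left 15204. Ratios and correlations used log2(TPM + 0.1), with exact or 100000-resample two-sided permutation tests in scipy 1.17.1. Alternatives used limma 3.58.1 and DESeq2 1.42.0. The edgeR fits were tested on simulated data, and the limma and DESeq2 alternatives were not. Positions are those of GENCODE M21 (GRCm38), to which 54079 of 54146 genes were matched. Library numbers came with the libraries' own names. Protein sequences were not used here.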

Additional observations from a re-analysis of the deposited data

Results flagged for a closer look

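The sex difference of Cela1, Cela2a and Cela3b depended on the strain, with adjusted p-values of 0.000992, 0.00189 and 0.00348 for the interaction in edgeR's quasi-likelihood test over 82 libraries of 6 strains. The direction for Cela1 was female over male in 129, B6 and CAST and male over female in AJ, NOD and WSB. The acinar mean moved with it, as given beside the levels, and its part was not tested. The Cela3b level of 1 female NZO library, numbered 86, lay far below the other 3 of that strain, at 9.04 on the log2(TPM + 0.1) scale (526.7 TPM, against 5176 to 7018 TPM), with a gap of 0.882 of the range of the strain. The same library was lowest in Cela1 (1151 TPM, against 4740 to 14939), in Cela2a (856 TPM, against 6332 to 10614) and in the acinar mean (7.83, against 10.97 to 11.27 on the log2 scale), and its Cela3b minus that mean was 1.21, against 1.37 to 1.64. Of 28 sets of a gene and a strain examined for such a library, 1 was found, and chance gives about 1 in 20.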

How the results depend on the processing

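No paired analysis was possible because the library numbers are not shared between groups. The count of genes that differed by sex was 1489 without the 12 libraries against the sex label and 0 with the libraries of each sample summed, against 609. The count for the strain by sex interaction was 2676 without those 12 libraries and with all 6 strains kept, an alternative chosen after seeing the data, against 897. The between-strain share of the Cela1 to Cela3b ratio was 2.21% over AJ, B6 and WSB and 23.7% over 129, NOD, NZO and PWK, neither past the threshold. The CAST difference of the Cela3a to Cela3b ratio between number sets was 1.27 in females only, where the design cannot pass the threshold, and 1.12 to 1.23 without each CAST library. The acinar secretory genes higher in CAST numbered 4 with an acinar covariate and 6 with summed libraries, against 22, and 20 to 23 without each NZO or PWK library. The acinar covariate turned the CAST difference of Cela1 to -0.55, of Cela2a to -0.44 and of Cela3b to -0.87, where the covariate is a mean that holds genes far higher in CAST (Prss1, Try10, Amy2b) and the median acinar gene had 1.36. The sex difference, past the threshold for no elastase under any alternative, turned positive with the acinar covariate (Cela1 0.0102, Cela2a 0.0283, Cela3a 0.0829, Cela3b 0.0655) and with summed libraries (0.15, 0.18, 0.25 and 0.27). That of Cela3b was also 0.0013 with TMM, 0.0016 with median-ratio size factors, 0.0021 with DESeq2, 0.0012 with no filter, 0.0906 without the libraries against the label, and -0.0635 to 0.0139 without each NZO or PWK library. Without each of those libraries the count of genes by strain was 14556 to 14593 and by sex 561 to 613. The between-strain share was then 38.4% to 45.8% for Cela1, 73.9% to 75.6% for Cela2a and 42.6% to 43.4% for Cela3a, each relative to Cela3b. The Cela3a span among strains was 2.50 to 3.67. The cause of these changes was not tested. Cela3a outside CAST rests on a median of 25.7 counts, which limits its ratios there.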
